A study of Rattus norvegicus with 29 samples.

Results

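The genes described are 37 genes whose transcription interferon is known to raise, named as a list of interferon response genes, and followed in the livers of rats given 2,2,5,7,8-pentamethyl-6-chromanol (PMCol), a vitamin E relative without the long side chain. A member was taken from the array when a transcript cluster, the set of probes for a transcript, carried its symbol and no other. That gave 33 of the 37 genes with 1 cluster each, out of 27342 clusters on the array. No such cluster was found for Parp14, Eif2ak2, Samhd1 and Xaf1, which are not analysed here.

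All animals were male Crl:CD Sprague-Dawley rats, 6 to 7 weeks old, dosed daily by oral gavage, and all treated animals received PMCol in the vehicle the controls received, 1% methylcellulose in water. Rats killed at day 29, after 28 doses, had received vehicle (n = 6), 200 mg/kg (n = 6) or 2000 mg/kg (n = 5). Rats killed at day 8, after 7 doses, had received 2000 mg/kg (n = 6) or vehicle (n = 6). Animals of 200 mg/kg at day 8 were not analysed here. Total RNA of the left liver lobe was hybridised to 1 whole-transcript array per animal, 29 arrays in all, and the labels number the animals of a group as biological replicates. Day, age at death and length of dosing changed together, so they cannot be told apart, nor can they from any technical difference between the days.

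The deposited values are log2 signals centred on each cluster's median over the 29 arrays, so every value below is a difference from that median on the log2 scale and no gene has a level. For the same reason the presence of hepatocyte transcripts could not be checked by level, although 13 of the 14 listed hepatocyte genes had a cluster. Array medians ran from -0.023 to 0.029. The root mean square deviation from the group mean over all clusters was 0.215 and 0.169 in vehicle day 29 replicates 1 and 2, 0.166 and 0.158 in 200 mg/kg day 29 replicates 1 and 3, and 0.105 to 0.144 in the other arrays. Counts that rest on these 4 arrays are given with and without them. A gene is called higher or lower where the Benjamini-Hochberg adjusted p of limma, a linear model fitted across all 27342 clusters, was under 0.05. Changes are log2 differences between groups ± SE from that fit.

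Interferons are cytokines, and cells release those of type I when they sense foreign or misplaced nucleic acid. Type I interferon signals through its receptor to a complex that holds STAT2 and IRF9 and binds the interferon-stimulated response element (ISRE) in promoters, and interferon-gamma acts on promoters through the gamma-activated sequence (GAS). In liver, hepatocytes, Kupffer cells (the resident macrophages), endothelial cells and lymphocytes can all express such genes. In whole-liver RNA, fewer cells of a type and less RNA per cell cannot be told apart.

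Promoter windows from RefSeq (assembly GRCr8), 250 bases before to 50 after the annotated start, were found for 30 of the 37 genes. A window was counted as holding an ISRE core where it had GAAANNGAAA or its complement TTTCNNTTTC, and a GAS core where it had TTCNNNGAA, a pattern that is its own complement. The patterns may overlap each other. The ISRE core was present in 18 of the 30 windows, or 60.0% of them, against 3.92% of all 33469 rat windows. The GAS core was present in 9 of the 30, or 30.0%, against 8.87% of all windows. The 250 bases before the start follow for members on which the results turn, 5′ to 3′ on the gene's strand, with both cores in capitals.
Bst2, chr16:18254968-18255217, minus strand, a GAS core overlapping 2 ISRE cores: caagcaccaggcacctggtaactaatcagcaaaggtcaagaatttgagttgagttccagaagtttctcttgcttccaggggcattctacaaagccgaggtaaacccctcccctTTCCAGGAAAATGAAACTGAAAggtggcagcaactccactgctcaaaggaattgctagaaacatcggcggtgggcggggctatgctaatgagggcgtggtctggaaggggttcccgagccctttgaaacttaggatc
Ifih1, chr3:67683969-67684218, minus strand, 1 ISRE core: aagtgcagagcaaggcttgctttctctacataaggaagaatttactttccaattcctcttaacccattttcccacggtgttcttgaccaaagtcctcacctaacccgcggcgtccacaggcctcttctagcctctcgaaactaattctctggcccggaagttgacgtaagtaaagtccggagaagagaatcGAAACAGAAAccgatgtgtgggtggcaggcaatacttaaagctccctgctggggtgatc
Oas1a, chr12:41330216-41330465, plus strand, 1 GAS core and then 2 overlapping ISRE cores: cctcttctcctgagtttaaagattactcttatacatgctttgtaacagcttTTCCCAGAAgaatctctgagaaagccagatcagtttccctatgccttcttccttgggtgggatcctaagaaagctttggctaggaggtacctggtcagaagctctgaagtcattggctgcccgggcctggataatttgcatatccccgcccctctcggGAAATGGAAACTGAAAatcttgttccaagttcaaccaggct
Gbp5, chr2:233910749-233910998, plus strand, 1 ISRE core on the other strand: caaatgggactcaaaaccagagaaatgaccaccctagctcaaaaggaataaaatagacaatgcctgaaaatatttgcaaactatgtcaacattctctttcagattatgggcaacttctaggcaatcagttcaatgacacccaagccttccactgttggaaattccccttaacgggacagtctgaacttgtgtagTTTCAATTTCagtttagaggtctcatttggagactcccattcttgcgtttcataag
Irf1, chr10:38417685-38417934, plus strand, 1 GAS core and no ISRE core: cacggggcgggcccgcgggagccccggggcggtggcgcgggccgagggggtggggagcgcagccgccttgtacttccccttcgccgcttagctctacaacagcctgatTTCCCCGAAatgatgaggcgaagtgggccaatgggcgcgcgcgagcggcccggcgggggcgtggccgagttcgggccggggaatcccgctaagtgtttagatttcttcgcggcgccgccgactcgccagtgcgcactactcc
Oasl, chr12:47356293-47356542, minus strand, neither core: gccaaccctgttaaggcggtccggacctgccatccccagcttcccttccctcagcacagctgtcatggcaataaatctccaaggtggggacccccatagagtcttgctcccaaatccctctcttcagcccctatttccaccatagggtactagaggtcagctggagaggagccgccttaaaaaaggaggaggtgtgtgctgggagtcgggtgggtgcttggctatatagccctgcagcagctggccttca
Bst2 and Ifih1 are shown because their promoters carry the ISRE core and both genes rose at day 29. Gbp5 carries the core and fell at day 8, Oas1a carries it and varied widely between animals, and Irf1 and Oasl, with large changes at day 29 or between days, have no such letters in this window. A match of letters is a description and shows no binding.

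The first question was what 28 doses of 2000 mg/kg did to these genes. At day 29, 7 of the 33 members rose and 0 fell against vehicle, where 12.1% of all clusters rose and 9.55% fell. The genes that rose were Oasl, Ifit2, Cxcl11, Bst2, Dtx3l, Ifih1 and Trim25, with changes between 0.27 and 1.23. The median change over the members was 0.27, against 0.002 over all clusters, and 30 of the 33 estimates were above 0. In 4 members (Oasl, Ifit2, Cxcl11 and Bst2) every animal at 2000 mg/kg lay above every vehicle animal, as 6.43% of all clusters did. Without vehicle replicates 1 and 2, a choice made after seeing the data, 4 members rose.

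The same dose gave another pattern after 7 doses. At day 8, 9 of the 33 members fell and 2 rose against vehicle, where 9.32% of all clusters fell and 9.32% rose. Those that fell were Mx1, Irf1, Gbp5, Gbp2, Ifi27, Dtx3l, Trim25, Stat2 and Zbp1, with changes between -0.99 and -0.20, and those that rose were Bst2 and Ifit2. The median change over the members was -0.28, against -0.005 over all clusters, and 30 of the 33 estimates were below 0. In Gbp5 and Gbp2 every treated animal lay below every vehicle animal, as 5.19% of all clusters did. The count of members that fell depended on single animals. It was 20 without treated replicate 3, and leaving out another animal brought it down to as few as 6.

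Bst2 and Ifit2 were the members that rose at both days. Of the genes that rose at day 29, Dtx3l and Trim25 fell at day 8. The difference between the days is tested further on.

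**Figure D1:**
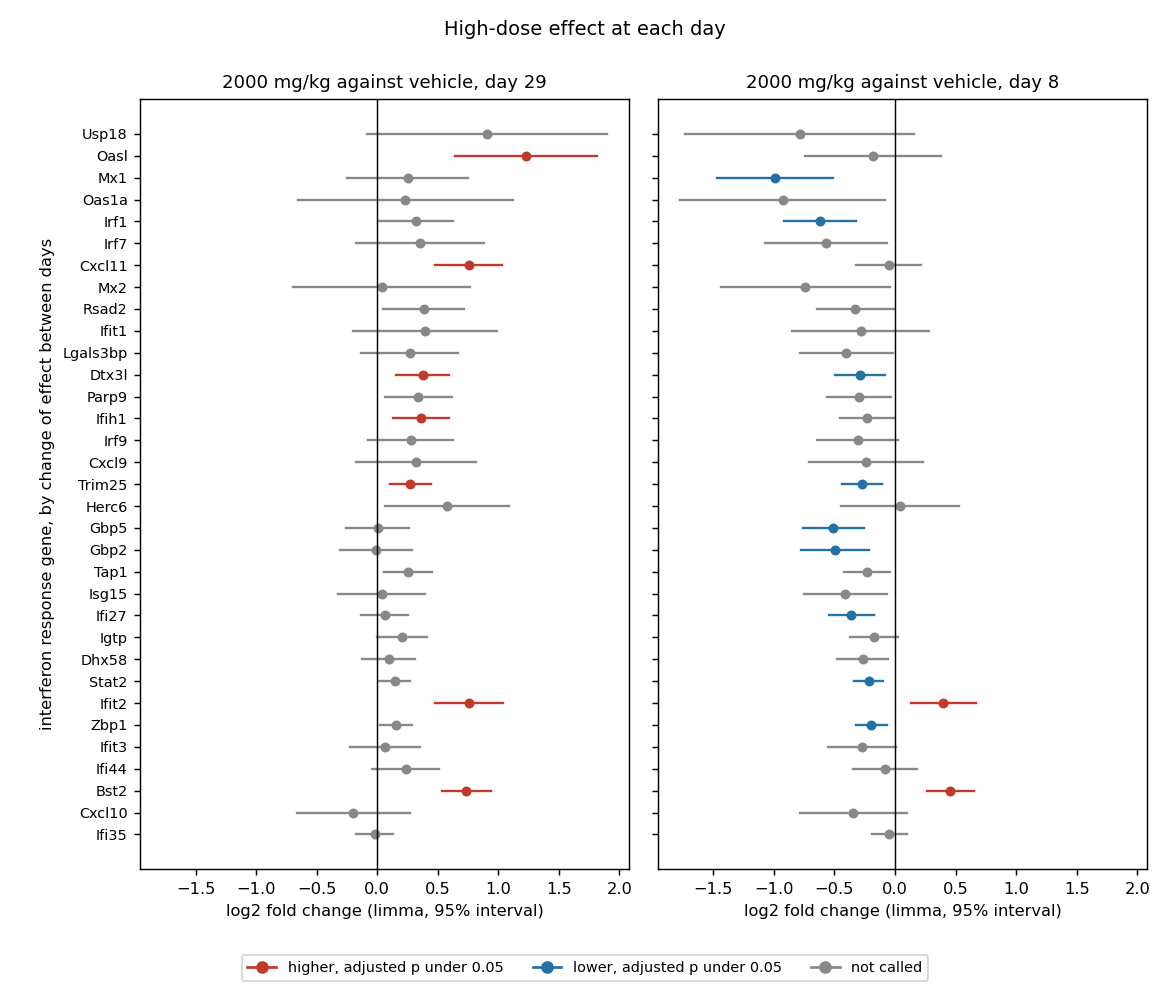
Log2 fold change with its 95% interval (x axis) of each of the 33 members (y axis, sorted by the change of effect between days), for 2000 mg/kg against vehicle at day 29 on the left and at day 8 on the right. Red points were called higher, blue points lower and grey points neither, 7 higher at day 29, and 2 higher and 9 lower at day 8.

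Among the transcription factors, Irf1, which interferon-gamma induces, stood on different sides of vehicle at the 2 days. At day 29 the Irf1 values were 0.26, 0.44, 0.87, -0.25 and 0.29 in the 5 animals at 2000 mg/kg, against a lowest, median and highest of -0.40, 0.01 and 0.27 in vehicle. At day 8 they were -0.64, -0.27 and 0.07 (lowest, median and highest of 6) at 2000 mg/kg, against 0.06, 0.32 and 0.62 in vehicle. The day 8 groups met only at their edges, and at day 29 treated replicates 1 and 4 lay within the vehicle range. The change was 0.32 ± 0.15 at day 29 (adjusted p = 0.145) and -0.62 ± 0.14 at day 8 (adjusted p = 0.00234), so Irf1 fell at day 8. Without 2000 mg/kg replicate 4 at day 29, Irf1 was also called there (adjusted p = 0.0245).

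Stat2 and Irf9 belong to the complex that binds the ISRE. Stat2 was 0.21, 0.08, -0.03, 0.07 and 0.06 at 2000 mg/kg at day 29, against -0.20, -0.11 and 0.19 in vehicle, and -0.40, -0.22 and -0.10 at 2000 mg/kg at day 8, against -0.15, -0.01 and 0.10 in vehicle. Its fall at day 8 was small, -0.22 ± 0.06 (adjusted p = 0.00862), and its animals were close together in each group. Irf9 was 0.33, 0.21, 0.42, 0.11 and 0.19 at 2000 mg/kg at day 29, against -0.29, -0.06 and 0.26 in vehicle. At day 8 Irf9 ran from -1.10 to 0.36 at 2000 mg/kg (median -0.44), against -0.48 to 0.16 in vehicle (median -0.03). The treated animals at day 8 spread over a wider range than vehicle and covered it, and Irf9 was called at neither day (adjusted p = 0.279 at day 29 and 0.211 at day 8).

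Irf7, which drives the transcription of type I interferon genes, had the widest spread of the 4 factors. It was 0.72, 0.10, 0.55, -0.04 and 0.37 at 2000 mg/kg at day 29, against -0.42, -0.17 and 0.65 in vehicle, and -1.36, -0.49 and 0.56 at 2000 mg/kg at day 8, against -0.41, 0.08 and 0.68 in vehicle. Groups overlapped at both days. The changes were 0.35 ± 0.26 at day 29 (adjusted p = 0.379) and -0.57 ± 0.25 at day 8 (adjusted p = 0.115), and neither passed.

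The sensors recognise viral nucleic acid. Ifih1 (MDA5), a receptor for long double-stranded RNA, was 0.28, 0.10, 0.05, 0.15 and 0.25 at 2000 mg/kg at day 29, against -0.80, -0.10 and 0.05 in vehicle. The treated animals lay at the top of the vehicle range or above it, the lowest vehicle value was that of replicate 1, and Ifih1 rose by 0.36 ± 0.11 (adjusted p = 0.0217). The call was lost without vehicle replicate 1 (change 0.24, adjusted p = 0.0573) or without treated replicate 1 or 5, and without vehicle replicates 1 and 2 together (adjusted p = 0.139). Trim25, a ubiquitin ligase that acts in RIG-I signalling, was 0.13, 0.27, 0.13, 0.01 and -0.10 at 2000 mg/kg at day 29 and -0.23, -0.11 and 0.00 at 2000 mg/kg at day 8. It rose by 0.27 ± 0.08 at day 29 (adjusted p = 0.0176) and fell by 0.27 ± 0.08 at day 8 (adjusted p = 0.0151). The day 29 call was lost without treated replicate 2 (adjusted p = 0.0647) and without vehicle replicates 1 and 2 together (adjusted p = 0.0752), and at day 8 leaving out vehicle replicate 2 ended the call (adjusted p = 0.0556). Its vehicle animals differed between days, with -0.41, -0.17 and 0.00 at day 29 and -0.12, 0.15 and 0.45 at day 8, a fall of 0.35 ± 0.08 (adjusted p = 0.0193). Trim25 was the only member called between the vehicle groups. Zbp1, a sensor of Z-form nucleic acid, fell slightly at day 8 (-0.20 ± 0.06, adjusted p = 0.0253), a call lost when any 1 of 5 of the 12 animals was left out (adjusted p up to 0.0799). Dhx58 (LGP2) was called at neither day.

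The antiviral effectors act on viral RNA and particles. Oasl, an oligoadenylate synthetase-like protein, had the largest rise at day 29, with 1.25, 0.58, 0.81, 1.07 and 1.42 at 2000 mg/kg, against -0.59, -0.20 and 0.35 in vehicle. The groups did not overlap, and Oasl rose by 1.23 ± 0.29, or 2.35-fold (adjusted p = 0.00202). At day 8 Oasl ran from -1.10 to 0.99 at 2000 mg/kg, against -0.34 to 0.16 in vehicle, and was not called (-0.18 ± 0.27). Of the 6 treated animals at day 8, 3 lay below every vehicle animal, 2 above every vehicle animal and 1 within the vehicle range.

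Bst2 (tetherin), which holds budding virions at the cell surface, rose at both days. It was 0.43, 0.67, 0.44, 0.60 and 0.58 at 2000 mg/kg at day 29, against -0.45, -0.22 and 0.07 in vehicle, and -0.04, 0.38 and 0.43 at 2000 mg/kg at day 8, against -0.36, -0.12 and 0.00 in vehicle. At day 29 the groups were apart, and at day 8 treated replicate 4 alone lay within the vehicle range. The rises were 0.74 ± 0.10 at day 29 (adjusted p = 2.49e-06, the smallest of any member) and 0.45 ± 0.09 at day 8 (adjusted p = 0.000765), and both were called without any 1 of the animals compared.

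Ifit2, a tetratricopeptide protein that binds RNA, was 0.34, 0.20, 0.45, 0.32 and 0.51 at 2000 mg/kg at day 29, against -0.65, -0.47 and 0.00 in vehicle, and -0.03, 0.18 and 0.70 at 2000 mg/kg at day 8, against -0.41, -0.13 and 0.19 in vehicle. It rose by 0.75 ± 0.14 at day 29 (adjusted p = 0.000148) and by 0.40 ± 0.13 at day 8 (adjusted p = 0.031), where its groups overlapped and 4 of the 12 animals each ended the call when left out. Ifit1, which binds RNA without a particular cap methylation, and its partner Ifit3 were called in none of the comparisons. Ifit1 was close to its median in most livers and was 2.01 in 2000 mg/kg day 29 replicate 3, 1.63 in vehicle day 8 replicate 1 and 0.68 in 200 mg/kg day 29 replicate 1. Signal that the Ifit2 cluster may share with Ifit1 or Ifit3 was not tested.

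Mx1, a dynamin-like GTPase that blocks viral nucleocapsids, had the largest fall at day 8. It was -1.09, -0.61 and 0.23 at 2000 mg/kg, against 0.00, 0.48 and 0.88 in vehicle. The highest treated animal reached into the vehicle range, and Mx1 fell by 0.99 ± 0.23 (adjusted p = 0.00266). At day 29 it was 0.37, -0.39, 0.46, -0.39 and 0.44 at 2000 mg/kg, against -0.93, 0.03 and 0.32 in vehicle. Treated replicates 2 and 4 lay below the vehicle median and the others above the highest vehicle animal, and Mx1 was not called there (0.25 ± 0.24). Oas1a, an oligoadenylate synthetase, was 0.44, -0.22, 0.24, 0.00 and 0.57 at 2000 mg/kg at day 29, against -1.37, 0.06 and 0.86 in vehicle, and -2.73, -0.92 and 0.67 at 2000 mg/kg at day 8, against -0.96, 0.10 and 0.86 in vehicle. Its groups overlapped at both days. Mx2 and Oas1a had large estimates at day 8 (-0.74 ± 0.34 and -0.93 ± 0.41) that did not pass (adjusted p = 0.142 and 0.126), and Rsad2 (viperin) passed at neither day. Close relatives such as Mx1 and Mx2, or the Oas genes, may share probe signal, which was not tested.

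**Figure D2:**
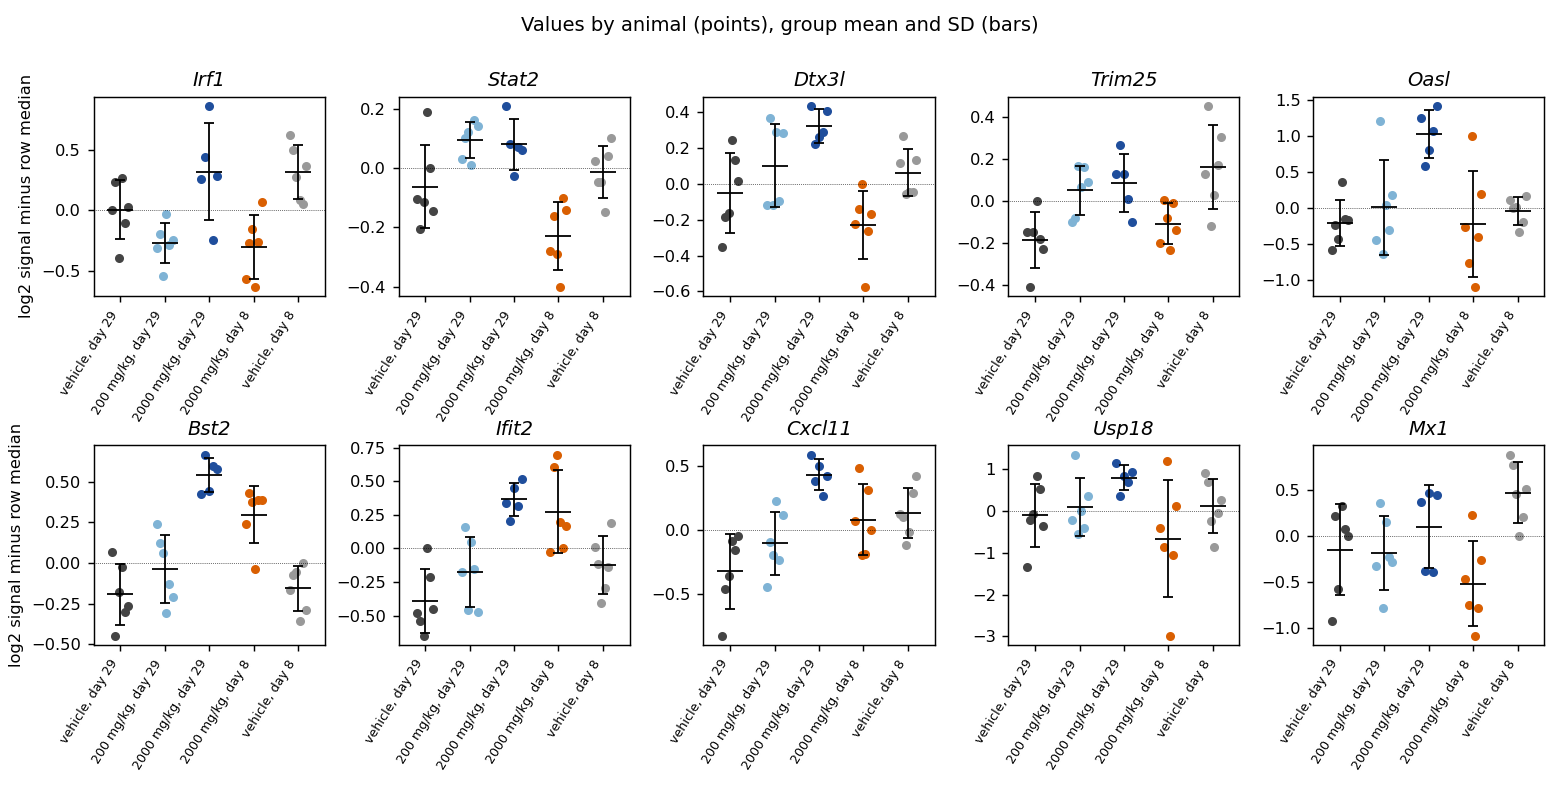
Log2 signal minus the cluster's median over 29 arrays (y axis, a separate scale per panel) for 10 members in each animal, by group (x axis), with the group mean and SD as bars. Bst2 at 2000 mg/kg lies between 0.43 and 0.67 at day 29, above all vehicle animals, and Usp18 at 2000 mg/kg at day 8 spreads from -2.99 to 1.20.

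Isg15, a ubiquitin-like modifier, Usp18, which removes it and restrains type I receptor signalling, and Herc6, its ligase in mouse, were not called at either day. Usp18 had the largest change of effect between days of all members and also the widest spread. It was 1.16, 0.36, 0.83, 0.68 and 0.95 at 2000 mg/kg at day 29, against -1.33, -0.15 and 0.83 in vehicle, and -2.99, -0.63 and 1.20 at 2000 mg/kg at day 8, against -0.87, 0.11 and 0.91 in vehicle. At day 29 all treated animals were above 0, with replicates 1 and 5 above the vehicle maximum and the others below it. At day 8 the treated range enclosed the vehicle range. Its changes were 0.90 ± 0.48 at day 29 (adjusted p = 0.202) and -0.79 ± 0.46 at day 8 (adjusted p = 0.276).

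Dtx3l, a ubiquitin ligase, and Parp9, a macrodomain protein, act as partners. Dtx3l was 0.44, 0.22, 0.26, 0.29 and 0.41 at 2000 mg/kg at day 29, against -0.35, -0.07 and 0.25 in vehicle, and -0.57, -0.20 and 0.00 at 2000 mg/kg at day 8, against -0.06, 0.04 and 0.27 in vehicle. It rose by 0.37 ± 0.11 at day 29 (adjusted p = 0.0115) and fell by 0.29 ± 0.10 at day 8 (adjusted p = 0.0455). The day 8 call was lost when any 1 of 7 of the 12 animals was left out, and the day 29 call was lost without vehicle replicates 1 and 2 together (adjusted p up to 0.0942). Parp9 was 0.46, 0.39, 0.35, 0.43 and 0.38 at 2000 mg/kg at day 29, against -0.31, 0.03 and 0.42 in vehicle, and -1.05, -0.32 and -0.02 at 2000 mg/kg at day 8, against -0.28, -0.06 and 0.02 in vehicle. It did not pass against vehicle at day 29 (adjusted p = 0.0762) or day 8 (adjusted p = 0.121).

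Guanylate-binding proteins are interferon-gamma-induced GTPases of cell-autonomous defence. Gbp5 was -0.45, -0.21 and -0.01 at 2000 mg/kg at day 8, against 0.13, 0.25 and 0.47 in vehicle, and Gbp2 was -0.54, -0.12 and -0.05, against 0.05, 0.34 and 0.48. Treated and vehicle animals were apart in both genes. They fell by 0.51 ± 0.12 (adjusted p = 0.00305) and 0.50 ± 0.14 (adjusted p = 0.00979). At day 29 the estimates against vehicle were 0.003 for Gbp5 and -0.010 for Gbp2. The clusters of these close relatives may share signal, which was not tested. Igtp, an immunity-related GTPase, was called only between the doses at day 29, as given further on.

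Cxcl9, Cxcl10 and Cxcl11 are ligands of CXCR3, the receptor that draws activated T cells. Cxcl11 was 0.59, 0.38, 0.50, 0.26 and 0.42 at 2000 mg/kg at day 29, against -0.83, -0.26 and -0.05 in vehicle, and it rose by 0.75 ± 0.14 (adjusted p = 0.000144) with no overlap. At day 8 its change was -0.05 ± 0.13 (adjusted p = 0.85). Cxcl9 and Cxcl10 were called at neither day, and the day 29 estimate of Cxcl10 was -0.20 ± 0.23.

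Of the remaining members, Ifi27 fell at day 8 by 0.36 ± 0.09 (adjusted p = 0.00506), with -0.74, -0.25 and 0.02 at 2000 mg/kg, against -0.05, 0.08 and 0.28 in vehicle. Treated replicate 4 gave the lowest value and the groups overlapped at the edge. Tap1, the peptide transporter of class I presentation, was 0.30, 0.19, 0.29, 0.10 and 0.26 at 2000 mg/kg at day 29, against -0.37, 0.00 and 0.13 in vehicle, and -0.39, -0.29 and 0.13 at 2000 mg/kg at day 8, against -0.27, 0.09 and 0.16 in vehicle. The groups overlapped at both days, and Tap1 had estimates of 0.25 ± 0.10 at day 29 (adjusted p = 0.0663) and -0.23 ± 0.09 at day 8 (adjusted p = 0.0885). Ifi44, Ifi35 and Lgals3bp, a secreted galectin-3-binding protein, were called at neither day.

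**Figure D3:**
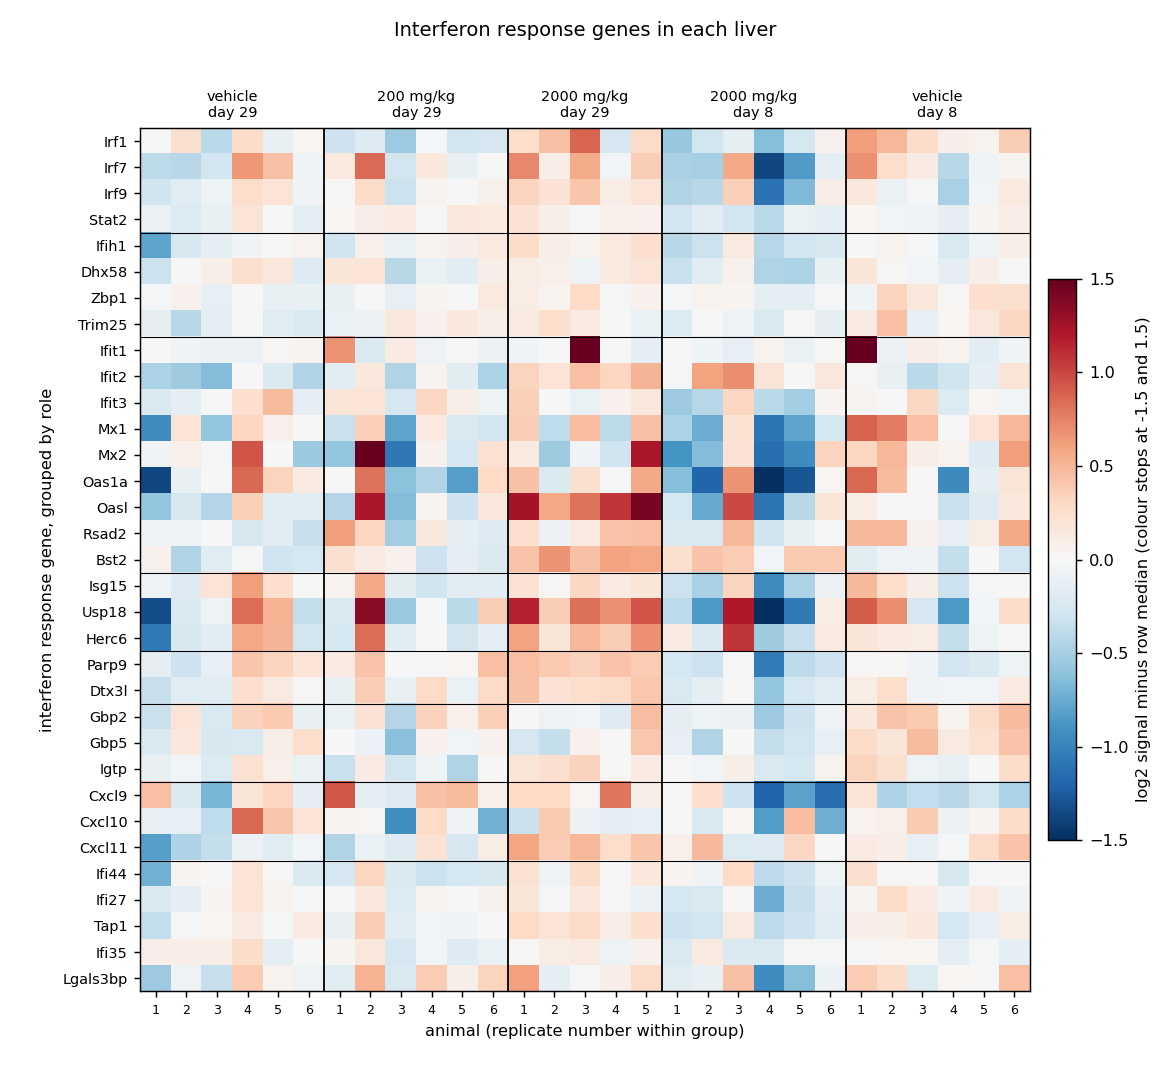
Log2 signal minus the cluster's median over 29 arrays (colour, stopping at -1.5 and 1.5) for the 33 members (rows, grouped by role) in each animal (columns, by group and replicate). The column of 2000 mg/kg day 8 replicate 4 is blue in most rows, that of replicate 3 of the same group is mostly red, and Ifit1 is red in 3 animals of different groups.

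The members varied together from animal to animal within groups. At 2000 mg/kg at day 8, replicate 4 had the lowest value of its group in 26 of the 33 members and replicate 3 the highest in 21. The mean over the members was -0.71 in replicate 4, 0.22 in replicate 3 and between -0.35 and -0.08 in the other animals of that group. Vehicle and low-dose animals also stood apart: vehicle day 29 replicate 4 was highest in 23 members, vehicle day 8 replicate 4 lowest in 22, and 200 mg/kg day 29 replicate 2 highest in 18 and replicate 3 lowest in 19. At 2000 mg/kg at day 29 the 5 means ran from 0.11 to 0.34, all above 0, against -0.35 to 0.28 in vehicle at day 29. At day 8 they ran from -0.71 to 0.22 at 2000 mg/kg, against -0.19 to 0.29 in vehicle.

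The dose comparison at day 29 asked whether 200 mg/kg shared the change. Against vehicle, 0 members were called at 200 mg/kg with limma, and 2 had an unadjusted p under 0.05, where 1.37% of all clusters were higher and 1.42% lower. Without vehicle replicate 4 the count was 1, and without vehicle replicates 1 and 2, or those and 200 mg/kg replicates 1 and 3, it was 0. The median change was 0.04 and 22 of 33 estimates were above 0. Between the doses, 6 members were higher at 2000 than at 200 mg/kg and 0 lower, where 6.05% of clusters were higher and 3.84% lower. These were Oasl at 1.02 ± 0.29, Irf1 at 0.59 ± 0.15, Bst2 at 0.58 ± 0.10, Ifit2 and Cxcl11 at 0.54 ± 0.14 each, and Igtp at 0.35 ± 0.10. The lowest, median and highest values at 200 mg/kg were -0.65, -0.13 and 1.21 for Oasl, -0.55, -0.27 and -0.03 for Irf1, and -0.31, -0.04 and 0.24 for Bst2. They were -0.48, -0.16 and 0.16 for Ifit2, -0.45, -0.15 and 0.22 for Cxcl11, and -0.45, -0.17 and 0.13 for Igtp, which was 0.19, 0.24, 0.34, 0.00 and 0.12 at 2000 mg/kg. In Oasl, 200 mg/kg replicate 2 alone reached the range of the high dose, and its call was lost when any 1 of 3 of the 11 animals was left out (adjusted p up to 0.0721), with quantile normalization (adjusted p = 0.0777) and with array quality weights (adjusted p = 0.059). In Ifit2, Cxcl11 and Bst2 the 2 dose groups did not overlap, as in 3.62% of all clusters. Without vehicle replicates 1 and 2 and 200 mg/kg replicates 1 and 3, 2 members were higher (Bst2 and Cxcl11).

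Bst2 means ran with dose, at -0.19 ± 0.19 in vehicle, -0.04 ± 0.21 at 200 mg/kg and 0.54 ± 0.11 at 2000 mg/kg (SD, n = 6, 6 and 5). The vehicle and 200 mg/kg groups were within each other's spread. Irf1 did not follow that order, at 0.00 ± 0.25 in vehicle, -0.27 ± 0.17 at 200 mg/kg and 0.32 ± 0.40 at 2000 mg/kg, with the 200 mg/kg mean below that of vehicle. Igtp likewise averaged -0.03 ± 0.15 in vehicle, -0.17 ± 0.22 at 200 mg/kg and 0.18 ± 0.13 at 2000 mg/kg, and its call was lost when any 1 of 5 of the 11 animals was left out. Stat2 averaged 0.10 ± 0.06 at 200 mg/kg, close to the 0.08 ± 0.09 at 2000 mg/kg, with an estimate of -0.02 ± 0.06 between them.

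The change in the high-dose effect between days was tested as an interaction, the effect at day 29 minus that at day 8. It was called for 5 members, all higher, where 0.472% of all clusters were called higher and 0.304% lower. Irf1 changed by 0.94 ± 0.21 (adjusted p = 0.0324), Cxcl11 by 0.81 ± 0.19 (adjusted p = 0.0403), Dtx3l by 0.66 ± 0.15 (adjusted p = 0.0324), Trim25 by 0.55 ± 0.12 (adjusted p = 0.0256) and Stat2 by 0.36 ± 0.08 (adjusted p = 0.0411). All 33 estimates were above 0 with a median of 0.54, against 0.01 over all clusters. Of the 19 macrophage markers, 17 estimates were above 0 with a median of 0.86, a larger shift than that of the members, and of the 24 T and NK cell markers 20 were above 0 with a median of 0.11. By limma 0 of these markers were called, while 17 macrophage and 6 T and NK cell markers had an unadjusted p under 0.05. Usp18 at 1.69 ± 0.67, Oasl at 1.41 ± 0.40, Mx1 at 1.24 ± 0.34 and Oas1a at 1.16 ± 0.60 had the largest estimates and did not pass (adjusted p = 0.231, 0.0801, 0.0726 and 0.368). The count of 5 rested on single animals. It was 0 without 2000 mg/kg day 8 replicate 1, and 1 without vehicle day 8 replicate 2, vehicle day 29 replicate 3 or 2000 mg/kg day 29 replicate 5. It was 2 without vehicle day 29 replicate 5, 2000 mg/kg day 8 replicate 4 or 2000 mg/kg day 29 replicate 1, and 3 without vehicle day 8 replicate 5 or 6 or 2000 mg/kg day 29 replicate 3. Without vehicle day 29 replicates 1 and 2 the count was 4, of which 3 were among the 5, and Cxcl11 and Stat2 lost their calls (adjusted p = 0.0504 and 0.0561). With 200 mg/kg replicates 1 and 3 out too it was 7, with Stat2 again not called. The Stat2 call was lost when any 1 of 15 of the 23 animals was left out, that of Cxcl11 with any 1 of 12, Irf1 with any 1 of 7, Dtx3l with any 1 of 5 and Trim25 without 2000 mg/kg day 8 replicate 1. Cxcl11 differs from the other 4 in that its day 8 estimate was near 0. From day 8 to day 29 Cxcl11 changed by -0.46 ± 0.13 in vehicle animals (limma adjusted p = 0.0536). At 2000 mg/kg it changed by 0.35 ± 0.14 (adjusted p = 0.178), and neither change was called. Trim25 changed by -0.35 ± 0.08 in vehicle animals (limma adjusted p = 0.0193). Its change at 2000 mg/kg was smaller, 0.20 ± 0.08, and was not called (adjusted p = 0.219). In Irf1, Dtx3l and Stat2 the change at 2000 mg/kg was called and that in vehicle animals was not.

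Day 29 was also compared with day 8 at the same dose. Between 2000 mg/kg at day 29 and at day 8, 8 members were higher and 0 lower, where 1.88% of all clusters were higher and 1.19% lower. Parp9 was higher by 0.79 ± 0.14 (adjusted p = 0.00126), Dtx3l by 0.55 ± 0.11, Stat2 by 0.31 ± 0.06, Tap1 by 0.45 ± 0.10, Oasl by 1.25 ± 0.29, Irf1 by 0.63 ± 0.15, Ifih1 by 0.43 ± 0.11 and Irf9 by 0.62 ± 0.17. The calls of Ifih1 and Irf9 were each lost when any 1 of 9 of the 11 animals was left out (adjusted p up to 0.0935 and 0.104), and that of Irf1 with any 1 of 4 (adjusted p up to 0.0736). With only these groups in the fit, Irf1, Irf9 and Oasl were not called (adjusted p = 0.076, 0.133 and 0.0505). Parp9, Dtx3l, Stat2 and Tap1 were called without any 1 of the animals compared. In Dtx3l, Parp9 and Stat2 every day 29 animal lay above every day 8 animal, as in 1.95% of all clusters. Without 2000 mg/kg day 8 replicate 3 the count was 13, and without replicate 4 of that group or day 29 replicate 2 it was 5. Between the vehicle groups, 1 member fell (Trim25, above) and 0 rose, where 0.962% of clusters rose and 1.77% fell, and 26 of 33 estimates were below 0 with a median of -0.12. That count was 0 without vehicle day 8 replicate 2 or 6, and 2 without vehicle day 8 replicate 1 or 3, vehicle day 29 replicate 2, or vehicle day 29 replicates 1 and 2 together. These comparisons and those with vehicle share animals.

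**Figure D4:**
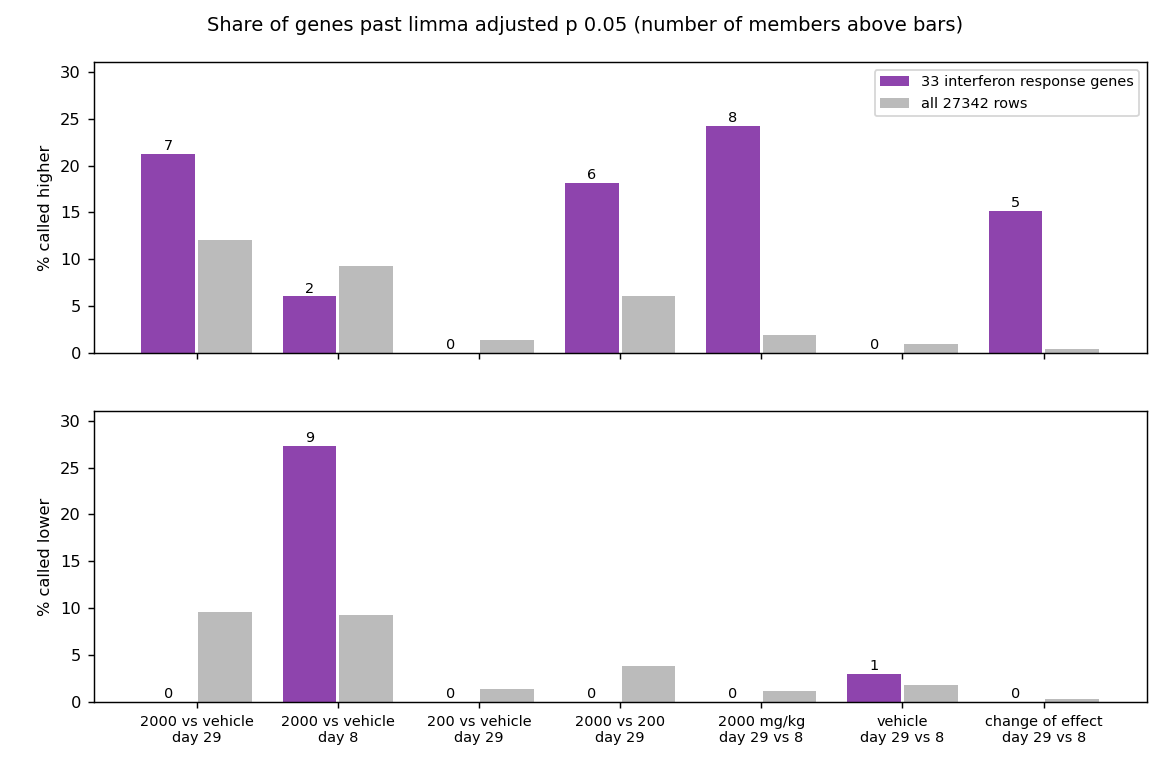
Share of the 33 members (purple, with their number) and of all 27342 clusters (grey) called higher (top) or lower (bottom) in each comparison, in percent (y axis). At day 29 against vehicle 7 members were higher and 0 lower, and at day 8 there were 2 higher and 9 lower.

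Members with and without an ISRE core in the window were set side by side. At day 29 against vehicle the median was 0.24 over the 15 members with an ISRE core (3 called higher), against 0.32 over the 11 without it (3 called higher). At day 8 the medians were -0.33 with the core (4 lower and 1 higher) and -0.24 without it (4 lower). The interaction medians were 0.49 with the core and 0.58 without it. These are descriptions with no test, and 7 of the members on the array had no window.

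Upstream of these genes, 17 of 27 listed ligands, receptors and JAK-STAT genes had a cluster. Of the 17, 1 rose and 2 fell at day 29, and 0 rose and 3 fell at day 8. For this list and those that follow, 12.1% of all clusters rose and 9.55% fell at day 29. At day 8, 9.32% rose and 9.32% fell, and between the vehicle groups 0.962% rose and 1.77% fell. The ligands Ifng and Ifnb1 were called in none of the comparisons, with estimates of -0.04 ± 0.05 and 0.12 ± 0.05 at day 29 and -0.03 ± 0.05 and -0.04 ± 0.05 at day 8. Ifnar1, a chain of the type I receptor, fell at day 8 by 0.23 ± 0.08 (adjusted p = 0.039), with -0.003 ± 0.08 at day 29, and the interferon-gamma receptor chain Ifngr1 was called against vehicle at neither day (-0.26 ± 0.12 at day 8). Both receptor chains were lower in vehicle animals at day 29 than at day 8, by -0.30 ± 0.08 for Ifnar1 and -0.49 ± 0.12 for Ifngr1. Socs3, a feedback inhibitor of JAK-STAT signalling that interleukin 6 also induces, rose at day 29 by 0.73 (adjusted p = 0.001), and its effect changed between days by 1.00 (adjusted p = 0.031). Jak1 fell at both days (-0.13 at day 29 and -0.18 at day 8), Pias1 fell at day 29 (-0.19) and Stat3 fell at day 8 (-0.29).

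Of 14 nucleic acid sensors and adaptors with a cluster, 2 rose and 1 fell at day 29, and 2 rose and 7 fell at day 8. Tlr3, the endosomal receptor for double-stranded RNA, rose by 0.94 at day 29 and 0.54 at day 8, and Ikbke, a kinase upstream of IRF3 and IRF7, rose by 0.93 and 0.64. Irf8, a factor of myeloid cells, fell at both days (-0.46 at day 29 and -0.62 at day 8). Tlr4, Aim2, Myd88, Irf5, Mavs and Irf3 fell at day 8, by 0.50, 0.48, 0.42, 0.32, 0.22 and 0.19 on the log2 scale.

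Among 15 class I antigen presentation and immunoproteasome genes, 4 rose and 1 fell at day 29, and 1 rose and 2 fell at day 8. The proteasome activator subunit Psme1 rose at both days (0.24 at day 29 and 0.21 at day 8), Psme2, Tapbp and Erap1 rose at day 29 (0.25, 0.23 and 0.27), and RT1-S3, a non-classical class I gene, fell at both days (-0.46 at day 29 and -1.30 at day 8). Class I genes of the RT1 region are near-identical, so their signal may be shared. Of 11 class II genes, 0 were called at day 29, where limma gave 3 an unadjusted p under 0.05, and 4 fell at day 8. These were Ctss at -0.98, Cd74 at -0.79, RT1-Da at -0.63 and RT1-Db1 at -0.43.

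Of 52 further interferon-induced genes with a cluster, 13 rose and 6 fell at day 29, and 5 rose and 15 fell at day 8. The falls at day 29 and the rises at day 8 were near the shares over all clusters, 9.55% and 9.32%. Casp4, an inflammatory caspase, rose by 1.61 at day 29 and 1.19 at day 8, and Isg20, an exonuclease, by 1.45 and 0.79. At day 29 Ifi27l2b also rose, by 1.06, and Tnfsf10 (TRAIL) by 0.67. The largest falls at day 8 were C1s at -1.45 and Slfn4 at -0.99, then C1r at -0.86 and Oasl2 at -0.78, and C1s and C1r, proteases of the classical complement pathway made by hepatocytes, fell at day 29 too (-1.10 and -0.49). Isg20 was the single gene of this list called at 200 mg/kg, higher by 0.44 (adjusted p = 0.011). Of the list's genes, 2 had a called change of effect between days, Isg20 at 0.66 and Oas2 at 0.52.

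Macrophage markers, and some markers of other liver cells, moved with the day 8 comparison. Of 19 macrophage markers, 16 fell at 2000 mg/kg at day 8, with a median change of -0.90, and 16 were lower in vehicle animals at day 29 than at day 8, with a median of -0.92. Against vehicle at day 29, or between the treated groups of the 2 days, limma called 0 of the 19, with 0 at an unadjusted p under 0.05, and their change of effect between days is given above. The mean of the markers per animal ran from -0.55 to 0.09 at 2000 mg/kg at day 8, against 0.32 to 1.09 in vehicle at day 8, and from -0.70 to 0.45 at 2000 mg/kg at day 29, against -0.50 to 0.67 in vehicle at day 29. In the other groups, vehicle day 29 replicate 2 and 2000 mg/kg day 29 replicate 5 reached into the range of the day 8 vehicle animals. Of 24 T and NK cell markers 7 fell at day 8 and 1 at day 29, and of 9 endothelial markers 3 fell at day 8 and 1 rose at day 29. Among 15 markers of dendritic cells, B cells and neutrophils, 2 fell at day 8 and 1 at day 29. Their median changes were -0.06 and -0.02, and 0 were called between the vehicle groups. Of 13 hepatocyte genes 8 fell at day 8 and 6 at day 29, with medians of -0.17 and -0.12. In centred values no marker can be placed at 0, and the part of these cells in the falls of the interferon response genes at day 8 and in the change between days was not tested. Against vehicle at day 29 none of the 19 macrophage markers was called, and the part of these cells in the rises at that day was not tested either.

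At the level of single animals, the marker means and the means of the interferon response genes were low together in some livers and not in others. The lowest animal of 2000 mg/kg at day 8 (replicate 4, -0.71 over the members) was also lowest there in the macrophage markers, at -0.55, and in the T and NK cell markers, at -0.27. The highest animal of that group (replicate 3, 0.22 over the members) had a macrophage mean of -0.10, the second lowest of its group. The lowest vehicle animal of day 8 (replicate 4, -0.19 over the members) had a macrophage mean of 0.91, the second highest of its group. At 2000 mg/kg at day 29 the 5 animals stood in the same order in the member and macrophage means. They ran from replicate 2 (0.11 and -0.70) to replicate 5 (0.34 and 0.45). Also at day 29, replicate 3 of 200 mg/kg (-0.31 and -0.76) and replicate 1 of vehicle (-0.35 and -0.50) were lowest in both. The highest over the members there, 200 mg/kg replicate 2 and vehicle replicate 4, were not highest in the macrophage markers. Whether the means run together was not tested.

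**Figure D5:**
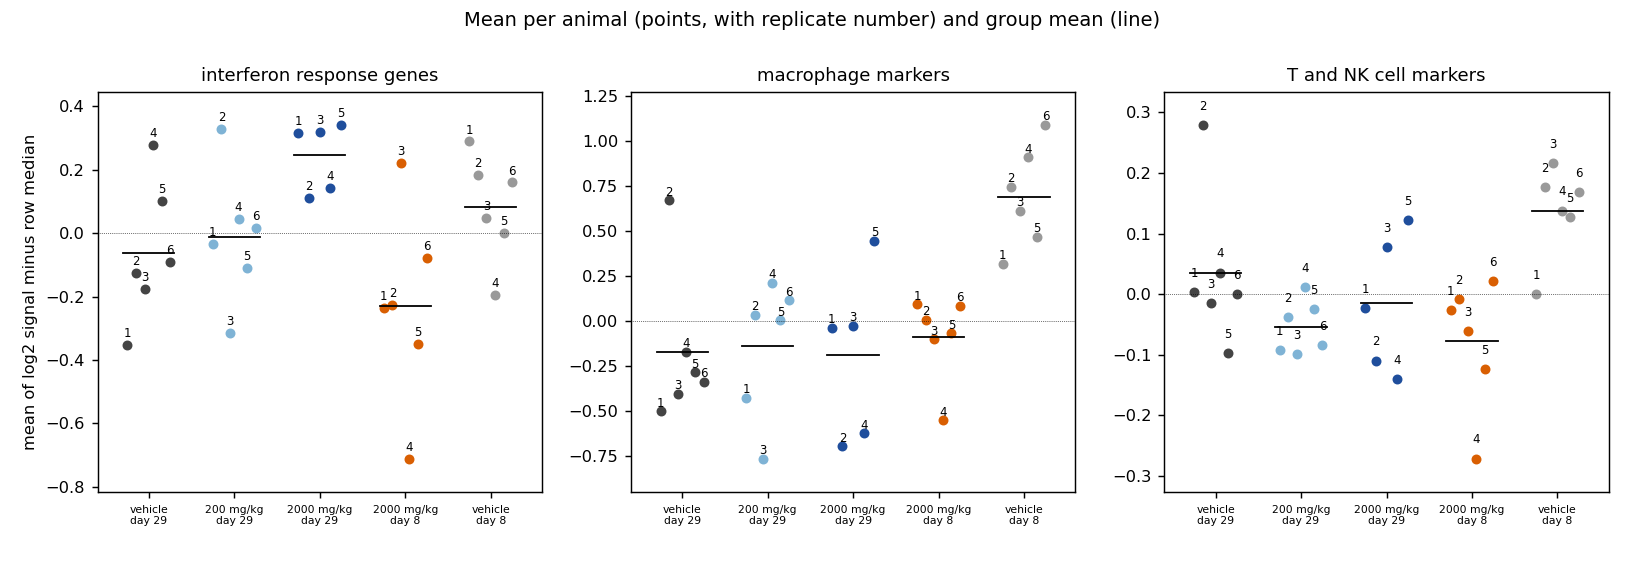
Mean per animal (points with replicate number; the line is the group mean) of log2 signal minus the cluster's median, over the 33 interferon response genes, 19 macrophage markers and 24 T and NK cell markers, by group (x axis; the y scales differ). The interferon means at 2000 mg/kg at day 29 lie between 0.11 and 0.34, and the macrophage means of vehicle at day 8 lie between 0.32 and 1.09.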

How the data were processed

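Affymetrix whole-transcript arrays measured the liver RNA, with a separate array for each of 29 rats, per the labels' protocols. A single table of log2 values was deposited, with 27342 rows (transcript clusters), each centred on its median over the arrays. PLIER and MAS5 are named in the submitters' processing notes. How arrays were normalized, and whether an offset was added before taking logs, is not given in the sources used here; an offset would make changes of dim genes too small. Values of 8 or more before centring leave a coarse rounding grid, found for 7783 rows and 11 of the members. Symbols came from the platform annotation, which gave 1 symbol for 15097 rows, several for 323 and none for 11922, and the 33 member rows have the same symbol in the RefSeq gene table (GRCr8). Rows with several symbols are not named.

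The table was fitted with limma 3.58.1 in R 4.3.3 as deposited: 5 group means over 29 animals, empirical Bayes moderation, two-sided p, Benjamini-Hochberg adjustment over all rows, threshold 0.05. The fit was tested on simulated data. P-values measure the spread between animals. The number of arrays limits the precision. The highest correlation between arrays was 0.73, so no array looked deposited more than once. The members and the other lists were chosen with earlier results of these data known. Named are Irf1, Irf7, Irf9, Stat2, Ifng, Ifnb1, Ifngr1 and Ifnar1 whatever their change, the members called with the 6 largest changes in each direction, the 4 members with the largest change of effect, and up to 4 called genes of each other list and comparison; others are named for having passed or as uncalled members of a role. For a gene with several rows, the row on the coarse grid was used, or else that with the lowest probe number. Tested alternatives were quantile normalization, centring of each array, the groups compared only, array weights, a replicate block, rows with 1 symbol, rows stored at 8 or more, a threshold of 0.01 and leaving out animals. Background correction, slide and scan date could not be varied from the deposited table and were not run. A further gene of the rule is not reported here. Plots used matplotlib 3.10.9.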

Additional observations from a re-analysis of the deposited data

Results flagged for a closer look

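Within groups, the highest or lowest animal was set against the others of its group by Dixon's ratio for each member, and 12 of 165 group and member pairs passed its 95% value, which chance alone passes in about 1 of 20 groups. Ifit1 stood out at 2.01 in 2000 mg/kg day 29 replicate 3 and at 1.63 in vehicle day 8 replicate 1, the largest gaps. In 2000 mg/kg day 8 replicate 3 the high values were Ifih1 at 0.13 and Rsad2 at 0.49, and in replicate 4 of that group the low value was Parp9 at -1.05. In 200 mg/kg day 29 replicate 2 the high values were Herc6 at 0.84, Ifi44 at 0.32 and Tap1 at 0.37, and in replicate 3 the low value was Gbp5 at -0.63. Vehicle day 29 replicate 1 was low in Ifih1 at -0.80 and Tap1 at -0.37, and vehicle day 8 replicate 1 was high in Cxcl9 at 0.21. The effect of 2000 mg/kg differed between day 29 and day 8, by limma's interaction term, for Irf1 by 0.94, Cxcl11 by 0.81, Dtx3l by 0.66, Trim25 by 0.55 and Stat2 by 0.36.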

How the results depend on the processing

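Leaving out 1 animal at a time gave, at 2000 mg/kg at day 8, 6 to 20 lower and 1 to 2 higher; at 2000 mg/kg at day 29, 6 to 10 higher; at 200 mg/kg, 0 to 1 higher; between the doses, 4 to 7 higher; between vehicle groups, 0 to 2 lower; between the treated groups of the days, 5 to 13 higher; and for the interaction, 0 to 7. Quantile normalization left 1 higher at day 8 and 2 in the interaction. With only the groups compared in the fit, 0 were lower between vehicle groups and 5 higher between the treated groups of the days. Array quality weights, rows with 1 symbol and the replicate block each gave 2 lower between vehicle groups, and the replicate block moved no other count by over 1.5 times, although Dtx3l at day 8 lost its call. Correlations between the deviations of same-numbered animals ran from -0.28 to 0.295, and the labels do not say whether the numbers pair the animals. Over rows stored at 8 or more, which hold 11 members, 0 were higher and 5 lower at day 8, 1 was higher between doses and 2 were lower between vehicle groups. At a threshold of 0.01, 1 was higher at day 8, 4 at day 29, 2 between doses, 4 between the treated groups and 0 in the interaction, and 0 were lower between vehicle groups. Without vehicle day 29 replicates 1 and 2, chosen after seeing the data, 4 were higher at day 29 and 2 lower between vehicle groups; with 200 mg/kg replicates 1 and 3 out too, these were 4 and 2, and 2 were higher between doses. Signs were followed for values called in the main fit and for Irf1, Irf7, Irf9 and Stat2 in every comparison. Of these, only uncalled estimates of those transcription factors turned sign. Other uncalled members were not followed singly, and some turned sign. Between the doses 31 of 33 estimates were above 0 as deposited and 27 with quantile normalization. Irf7 between vehicle groups was 0.010 with array weights and 0.079 without vehicle day 29 replicates 1 and 2, also with the 200 mg/kg arrays out. At 200 mg/kg, Irf7 was -0.060 and Irf9 -0.071 without those vehicle arrays. With 1 animal left out, Irf7 at 200 mg/kg ran from -0.0070 to 0.27, Irf9 at 200 mg/kg from -0.019 to 0.10, Irf9 between vehicle groups from -0.052 to 0.087 and Stat2 between doses from -0.048 to 0.011. Over the values so followed and all settings, 146 lost a call, 6 gained a call and 1137 kept direction and side. Only those transcription factors could gain a call there. Gains by other members show only in the counts above. The cause of these shifts was not tested. Background correction, slide and scan date were not run.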
